A study of Mus musculus with 2 samples.

Results

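The distal miRNA cluster of the imprinted Dlk1-Dio3 region, which runs from Mir379 to Mir410 and on to Mir3072 on mouse chromosome 12, was described in embryonic limb. Its members were set by a rule on position, chosen with earlier results of these data known. They are the 38 of 1973 miRNA gene rows in the count tables whose annotated coordinates lie fully within a fixed window of chromosome 12 around Mirg. The first member starts at 109709060 and the last ends at 109747960 (GRCm38). The material was limb of B6NCrl mouse embryos of both sexes at embryonic day 10.5, when the limb is a bud of mesenchyme under ectoderm. There was 1 group and no treatment, with 2 small-RNA libraries as biological replicates. Replicate 1 pooled limbs of 69 embryos and replicate 2 those of 51, so variation between single embryos was not measured. Conditions could thus not be compared, and with 2 libraries no test was run. Values are therefore given per library and as mean ± SD (n = 2).

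miRNAs are short RNAs cut from hairpin precursors, and each hairpin can give a 5p and a 3p strand. Bases 2 to 8 of the mature strand, the seed, are the main part that pairs with target mRNAs. The Dlk1-Dio3 region carries paternally expressed protein genes such as Dlk1 and maternally expressed noncoding RNAs, among them Meg3, Rian and Mirg, and its miRNAs come from the maternal chromosome. The distal cluster is best known from embryonic tissue, placenta and brain.

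Of the 38 rows, 34 lie on the plus strand, the strand of Mirg, and were read from sense counts. The other 4 rows, Mir299b, Gm25750, Gm25252 and Gm24321, are annotated on the minus strand opposite Mir299a, Mir380, Mir376a and Mir409, which have no row in the tables used here. Their antisense counts are reads from the plus strand, and they stand for those miRNAs below. Mir376b was not analysed here. CPM are counts per 1000000 sense counts in all gene rows, which came to 3581672 in replicate 1 and 3576482 in replicate 2. For a gene with no count, the upper limit is 3 counts, or 0.838 CPM in the first library and 0.839 in the second. Intervals are 95% exact binomial, and they and these limits cover counting error only.

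The mature miRNAs that the results turn on are printed here with the seed in capitals, from RefSeq on GRCm38.p6. They are arms of the most abundant genes, of the genes read through a minus-strand row, of Mir1193, which shares a seed with Mir379, and of Mir412, a low gene between 2 high ones.
miR-409-5p: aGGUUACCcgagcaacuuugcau
miR-409-3p: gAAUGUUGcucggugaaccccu
miR-487b-5p: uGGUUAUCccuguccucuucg
miR-411-5p: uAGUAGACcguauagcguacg
miR-411-3p: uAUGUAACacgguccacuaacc
miR-379-5p: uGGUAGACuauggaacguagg
miR-379-3p: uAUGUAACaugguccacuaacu
miR-1193-5p: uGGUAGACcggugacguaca
miR-369-5p: aGAUCGACcguguuauauucgc
miR-369-3p: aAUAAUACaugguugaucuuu
miR-541-5p: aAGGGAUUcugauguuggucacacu
miR-376a-3p: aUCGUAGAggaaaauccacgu
miR-380-5p: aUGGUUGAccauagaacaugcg
miR-380-3p: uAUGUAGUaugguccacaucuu
miR-299a-5p: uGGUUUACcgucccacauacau
miR-299a-3p: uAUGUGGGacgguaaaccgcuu
miR-412-5p: uGGUCGACcagcuggaaaguaau
miR-412-3p: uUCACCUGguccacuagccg

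RefSeq held mature sequences for 37 of the 38 members, 69 in all, and Gm27379 was the member without one. Each of the 69 sequences was found at 1 locus in that table, and the missing arms could not be checked. Some mature miRNAs of equal length are nearly identical. miR-379-3p and miR-411-3p differ by U10C and U22C, counted from the 5′ end with the miR-379-3p base first. miR-300-3p and miR-381-3p differ by G4A, U21G and C22U, with the miR-300-3p base first. Only reads placed at 1 locus were counted, and whether reads were lost between such pairs was not tested.

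Among reads placed at 1 locus, the cluster was one of the well-filled parts of the limb miRNA profile. Of all sense and antisense counts in gene rows, it held 5.81% in replicate 1 (interval 5.783 to 5.831) and 4.02% in replicate 2 (3.997 to 4.037), a mean of 4.91% ± 1.27. Set against the sense total that CPM use, which leaves out the antisense-read members, the same counts amount to 5.94% and 4.09%. Detection, at least 10 counts in both libraries, was reached by 34 of 38 members (89.5%), against 17.6% of all gene rows, taken by their sense counts. At least 100 counts on average were reached by 33 of 38, against 12.7% of all gene rows. The median member had 319 CPM in replicate 1 and 213 CPM in replicate 2, while the median of all gene rows was 0 in both. Among the rows ranked by mean CPM, 14 members were within the first 100. Multimapping reads, 21.9% of all reads in replicate 1 and 25.4% in replicate 2, stayed out of these totals. Genes with copies at other loci can lose such reads, whereas the cluster's 69 mature sequences were each found at 1 locus. The cluster's share, detection and ranks beside other rows may thus be raised, to an extent not tested.

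Marker miRNAs were summed to describe the material. Without libraries of another tissue, these sums cannot establish limb identity. The 6 limb-patterning genes in or near the Hox clusters were all detected and together had 187171 and 170106 CPM in replicates 1 and 2. The 7 mesenchymal genes had 24188 and 28717 CPM. Brain is a tissue known for this cluster. Of the 18 neural markers, 17 had a row, 11 were detected, their sum was 582 and 565 CPM, and the 3 Mir124a genes were at 0. The Mir124a genes give the same mature miRNA from several loci, and reads that fit several loci were not counted, so the neural sum is a lower limit. Other neural markers and the limb-patterning and mesenchymal lists also hold numbered copies of a miRNA. Their sums may be lowered too, to an extent not tested, so sums of different lists are not directly comparable. The 7 epithelial genes had 12334 and 10775 CPM, the 3 erythroid genes 480 and 269 CPM and the endothelial gene Mir126a 26707 and 23683 CPM. In a bulk sample, fewer cells of a type and less RNA per cell cannot be told apart.

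A small number of genes supplied most of the cluster's counts. Mir409 (the row Gm24321, chr12:109743158-109743237, in an intron of Mirg) had 11177 CPM in replicate 1 and 5542 CPM in replicate 2, a mean of 8359 ± 3985 CPM. Mir487b (chr12:109727333-109727414, upstream of the annotated Mirg gene) had 8253 and 6553 CPM, a mean of 7403 ± 1202 CPM. Its 5p strand carries the seed GGUUAUC, but counts are per hairpin and the part from each arm is not known. The order of these 2 genes was not settled: Mir409 was higher in replicate 1 and Mir487b in replicate 2. Mir411 (chr12:109710175-109710256) followed with 7875 and 5326 CPM (6600 ± 1803). Mir369 (chr12:109743418-109743496) had 5610 and 4103 CPM (4856 ± 1066). The 3p strand of Mir369 is known for binding AU-rich elements of mRNAs. Mir541 (chr12:109742409-109742498), in an intron of Mirg, had 4576 and 3475 CPM (4025 ± 778). Within each library Mir411, Mir369 and Mir541 kept the third, the fourth and the fifth place, although the ranges of Mir411 and Mir369 over the 2 libraries overlapped, as did those of Mir369 and Mir541. These 5 genes held 63.1% of the cluster's counts in replicate 1 and 61.2% in replicate 2, and the first 10 held 82.2% and 81.4%.

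**Figure D1:**
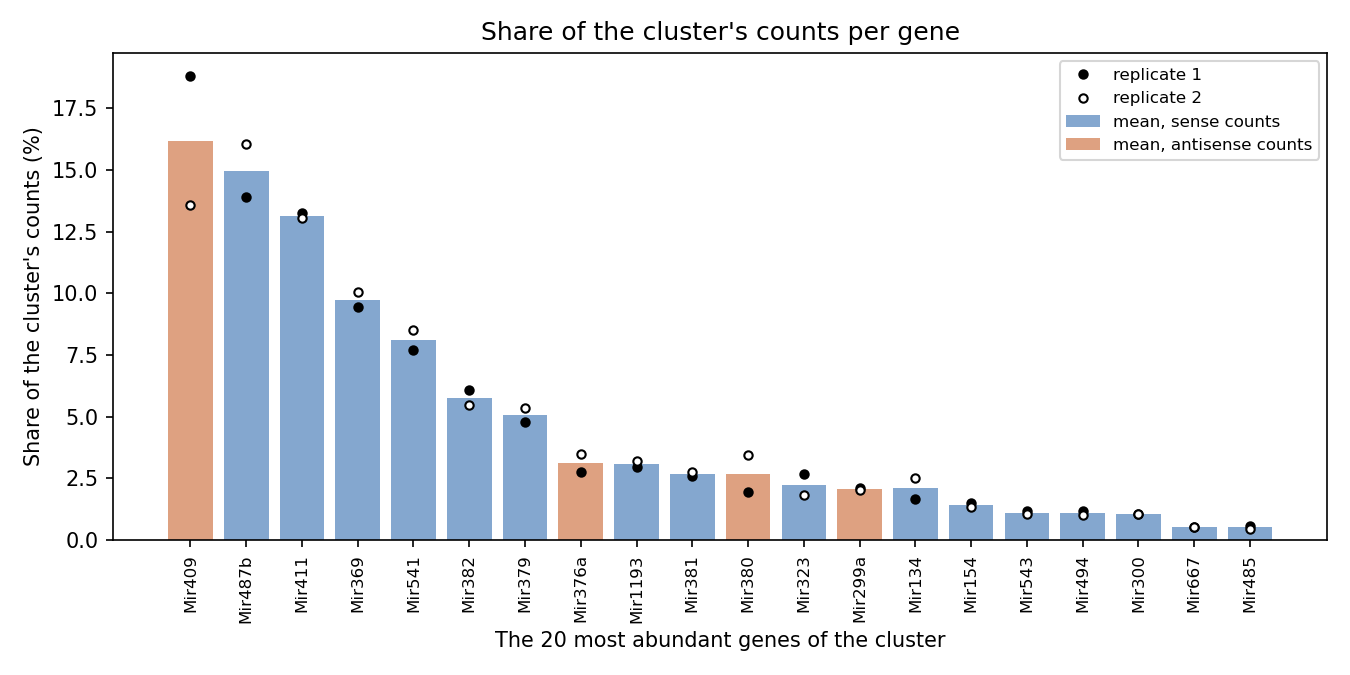
Share of the cluster's counts (%) for its 20 most abundant genes, with bars at the mean of the 2 libraries, filled points for replicate 1 and open points for replicate 2. Mir409, read from antisense counts, averages 16.2% with its 2 libraries at 18.8% and 13.6%, and the 20 genes hold 96.6% of the cluster's counts.

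Another 9 genes averaged at least 1000 CPM. Mir382 (chr12:109733771-109733846), which overlaps an exon of Mirg in part, had 3603 and 2235 CPM in replicates 1 and 2 (2919 ± 967). Mir379 (chr12:109709060-109709125), the first gene of the cluster, had 2839 and 2189 CPM (2514 ± 460). In both libraries these genes held the sixth and the seventh place. Mir376a belongs to a group of miRNAs known for adenosine-to-inosine editing, which can alter the seed. Its row, Gm25252 (chr12:109723756-109723875), had 1630 and 1428 CPM (1529 ± 142). Mir1193 (chr12:109715671-109715791) had 1751 and 1304 CPM (1528 ± 317), and its mean could not be separated from that of Mir376a. Mir381 (chr12:109726822-109726896) had 1548 and 1119 CPM (1334 ± 304). Mir380, read from Gm25750 (chr12:109711779-109711890), had 1141 and 1398 CPM (1269 ± 182) and was the only one of the 14 genes of over 1000 CPM on average, apart from Mir134, with a higher value in replicate 2.

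Mir323 (chr12:109712508-109712593) had 1594 CPM in replicate 1 and 734 CPM in replicate 2 (1164 ± 608). Mir299a, read from Mir299b (chr12:109710645-109710693), had 1259 and 832 CPM (1046 ± 302). Mir134 (chr12:109734139-109734209, within an exon of Mirg), known in neurons for limiting the growth of dendritic spines, had 990 and 1030 CPM (1010 ± 28.7). Mir154 (chr12:109738433-109738498), in an intron of Mirg, had 882 and 551 CPM (717 ± 234). The ranks of Mir376a, Mir1193, Mir381, Mir380, Mir323, Mir299a and Mir134 crossed between the libraries, and no order among them is given.

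The remaining 23 members were lower. With Mir154, 15 members had a mean of 100 to 1000 CPM, namely Mir543, Mir494, Mir300, Mir667, Mir485, Mir679, Mir376c, Mir410, Mir758, Mir496a, Mir412, Mir377, Mir329 and Mir495, from 561 CPM for Mir543 down to 108 CPM for Mir495. Another 9 had under 100 CPM. Of these Mir666, Mir539, Mir3072 and Mir668 had 73.2, 67.6, 58.0 and 34.5 CPM on average. Mir1197 (chr12:109712317-109712436) was the lowest detected member, with 68 counts in replicate 1 and 28 in replicate 2 (13.4 ± 7.89 CPM).

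The 4 members below detection were Mir544, Gm27379, Mir453 and Mir654. Mir544 (chr12:109729325-109729402) had 8 and 4 counts, and Gm27379 (chr12:109728821-109728943) 4 and 3 counts. Mir453 (chr12:109735619-109735700) had 1 and 0 counts. No count was found for Mir654 (chr12:109723218-109723301), at a limit of 0.838 and 0.839 CPM. Across the detected members the SD of log2 mean CPM was 2.38, and Mir409 was 623-fold above Mir1197. The same SD over the 348 detected rows of the whole table was 3.53.

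Levels did not follow position along the cluster. Spearman's rho between start and mean CPM was -0.08 over the 34 detected members (-0.07 in replicate 1 and -0.10 in replicate 2), a description across genes that share 2 libraries. Neighbouring detected genes differed by a median of 2.47 on the log2 scale (33 steps), and any 2 detected members by 2.42 (561 pairs). In replicate 1 these medians were 2.55 and 2.41, and in replicate 2 they were 2.37 and 2.43. High and low genes were thus interleaved. Of 33 steps between neighbours, 10 were over 10-fold.

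**Figure D2:**
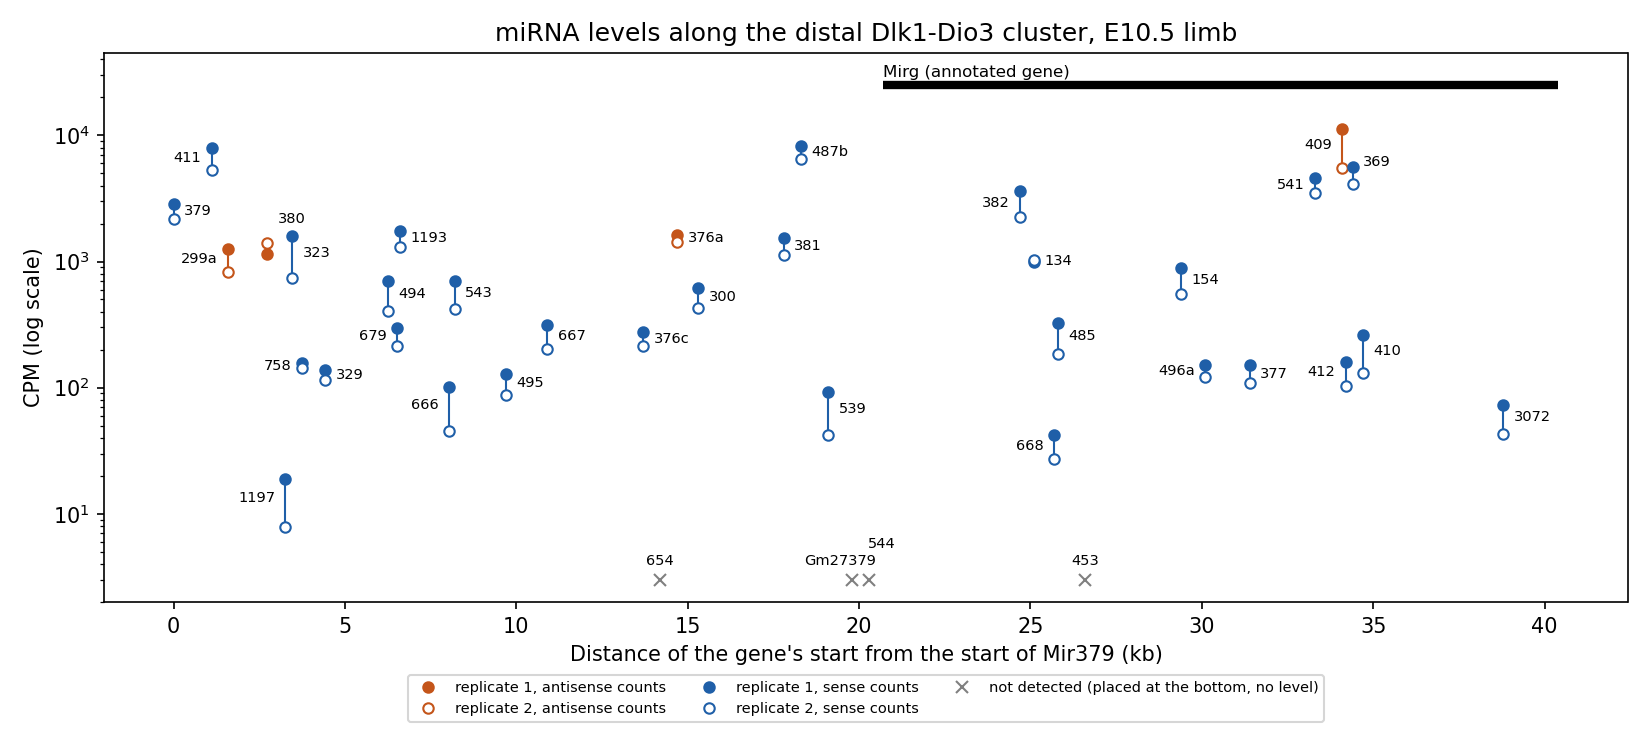
CPM on a log scale against the distance of each gene's start from the start of Mir379 in kb, with filled points for replicate 1, open points for replicate 2, orange for antisense and blue for sense counts. High and low genes occur along the whole length, with close neighbours far apart in level at Mir409, Mir412 and Mir369 near 34 kb, and the 4 crosses are genes below detection.

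Of these 10 steps, 7 lay between hairpins under 1 kb apart, and the pairs given here were picked from all steps after their sizes were seen. Mir409 and Mir412 are separated by 51 bases and differed 63.5-fold, with a log2 ratio of 6.12 in replicate 1 and 5.75 in replicate 2. Mir412 had 160 and 103 CPM (132 ± 40.4). Mir369 starts 49 bases after Mir412 and was 36.9-fold above it, and Mir410, 218 bases further on, was 24.8-fold below Mir369 at 261 and 131 CPM. A low gene thus sat between 2 of the 4 most abundant ones in both libraries. At the start of the cluster Mir1197 was 94.7-fold below Mir380 on one side and 86.8-fold below Mir323, 71 bases away, on the other. Mir539, with 93.0 and 42.2 CPM, was 110-fold below Mir487b, 714 bases away, at log2 ratios of 6.47 and 7.28. Mir134 was 29.3-fold above Mir668, 522 bases away. These 7 steps come from 19 neighbouring detected pairs with under 1 kb between them. The other 3 steps spanned more than 1 kb: Mir539 was 43.2-fold below Mir382, Mir377 31.2-fold below Mir541 and Mir666 20.9-fold below Mir1193. Some neighbours were level instead: Mir758 and Mir329 differed 1.18-fold, Mir667 and Mir376c 1.05-fold and Mir496a and Mir377 1.06-fold.

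The summed counts differed along the cluster more than the level of the typical member in the second to the fourth stretch. In windows of 10 kb, the first window (8 members, Mir379 to Mir329) held 25.8% ± 0.716 of the cluster's counts. The second (11 members, Mir494 to Mir300) held 11.3% ± 0.467 and had no member above a mean of 1529 CPM. The third (9 members, Mir381 to Mir485) held 26.2% ± 1.69 and the fourth (9 members, Mir453 to Mir410) 36.6% ± 2.86. The fifth held Mir3072 alone, at 0.114% ± 0.0114. The median member had 1105 CPM in the first window and 258, 256 and 196 CPM in the second, the third and the fourth. The lead of the fourth window rested on its minus-strand row, Mir409: from plus-strand rows alone it held 26.9% and the third window 34.5%.

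The annotated Mirg gene (chr12:109729764-109749460) covers the distal part of the cluster only. The 24 members upstream of it held 52.9% and 56.8% of the cluster's counts in replicates 1 and 2. The 5 members in its introns held 28.2% and 23.7%, almost all from Mir409 and Mir541. Another 5 members overlap an exon in part, Mir382, Mir668, Mir412, Mir369 and Mir3072, and held 16.0% and 15.9%. The 4 members fully within an exon, Mir134, Mir485, Mir377 and Mir410, held 2.90% and 3.56%, and the highest of them was Mir134. Median levels were 391 CPM upstream, 717 in introns, 132 across exon borders and 226 within exons, from 4 or 5 members in each of the last 3.

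Genes read through minus-strand rows made up a large part of the cluster. Mir409, Mir376a, Mir380 and Mir299a together held 25.6% of its counts in replicate 1 (25.40 to 25.77) and 22.5% in replicate 2 (22.30 to 22.73). These 4 rows also held 64.7% and 53.3% of all antisense counts in the 1973 gene rows, where 14 rows reached 10 antisense counts in both libraries. None of the 34 plus-strand members had an antisense count in either library. A profile taken from sense counts alone would leave out the gene with the highest mean in the cluster.

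Several members share a seed. RefSeq gave 5 seeds that occur in 2 members each, covering 9 members and 23.3% ± 0.293 of the cluster's counts. Arms missing from that set, such as the 3p arms of Mir487b, Mir376c and Mir539, could not be searched, so further shared seeds may exist. The counts are per hairpin, so the part of them carried by the arm with the shared seed is not known. The 3p seed AUGUAAC of Mir379 and Mir411, shown above, belongs to genes that held 18.0% and 18.4% of the cluster in replicates 1 and 2. The 5p seed GGUAGAC is common to Mir379 and Mir1193, which held 7.72% and 8.55%. GGUUGUC is shared by miR-494-5p and miR-410-5p (1.61% and 1.31%), GGUUGAC by miR-1197-5p and miR-758-5p (0.296% and 0.366%) and GGUUGCC by miR-453 and miR-496a-5p (0.255% and 0.298%). Another 10 mature miRNAs of the cluster share a seed with miRNAs outside it, among them miR-329-3p with miR-362-3p and miR-411-5p with miR-7229-5p. They include miR-1193-3p, which shares its seed with miR-370-5p of Mir370, a proximal gene of the same Dlk1-Dio3 region. How often miRNAs outside the cluster share a seed was not computed, so these counts do not show more or less sharing than usual.

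Mature miRNAs of the cluster also share short motifs, some of them within the seed. Some carriers are pairs that share a whole seed, such as miR-379-3p and miR-411-3p, so these motifs partly repeat the shared seeds. The short motifs given here were picked after reading the sequences and searched on the mature strand. GGUU lay in bases 1 to 8 of 12 of 35 5p miRNAs (34.3%), among them miR-409-5p, miR-487b-5p, miR-380-5p and miR-299a-5p, and in 2.61% of 690 5p miRNAs from elsewhere in the genome. GGUCCAC was found in 5 of 33 3p miRNAs (15.2%), those of Mir379, Mir411, Mir380, Mir758 and Mir412, and in 0 of 696 others. Of these genes, Mir380 and Mir758 also carry GGUU on the 5p arm. UAUG began 6 of 33 3p miRNAs (18.2%), those of Mir379, Mir411, Mir299a, Mir380, Mir654 and Mir300, and 0 of 696 others. The 3p miRNAs of Mir379, Mir411 and Mir380 carry both GGUCCAC and UAUG, so the motif counts are not independent of each other. Genes with these motifs ranged from Mir409 to Mir654, that is from the highest mean to the lowest. The median GC content was 47.6% for the 69 mature miRNAs and 52.2% for 1665 others, and Spearman's rho between a gene's mean mature GC content and its mean CPM was -0.18 (34 detected members).

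The 2 libraries ranked the members alike, and replicate 2 was lower for most of them. For the 34 detected members, Spearman's rho between the libraries was 0.985 and Pearson's r 0.991 (log2 CPM), taken across genes and not across samples, and no member moved by more than 4 ranks. Of the 33 members with at least 100 counts on average, 31 were lower in replicate 2 (93.9%), against 66.8% of the 250 such rows in the whole table. The 250 rows were taken by sense counts, so they include the plus-strand members of that depth but not the minus-strand ones. The median log2 ratio of replicate 2 to replicate 1 was -0.55 with a range from -1.15 to 0.29, against -0.27 for the 250 rows. The SD of the ratio was 0.32 over the members and 0.66 over the 250 rows. Scaling with edgeR's TMM factors shifted every ratio by 0.29 and DESeq2's size factors by 0.28, and the members' medians were then -0.26 and -0.27, beside 0.02 and 0.01 for all rows. Since such a shift moves all rows alike, the distance between the members' median and that of all rows is fixed by the counts. With TMM factors 28 of the 33 members were lower, against 48.4% of the 250 rows, and with DESeq2 factors 29, against 49.2%.

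Members over 2-fold lower in replicate 2 numbered 4 (12.1%), against 9.60% of all rows of that depth, and none was over 2-fold higher, against 1.20%. They were Mir666, with 362 and 162 counts and a log2 ratio of -1.15 (-1.43 to -0.89), Mir539 at -1.13 (-1.43 to -0.86), Mir323 at -1.12 (-1.19 to -1.05) and Mir409 at -1.01 (-1.04 to -0.99). With TMM or DESeq2 scaling no member was over 2-fold lower, against 5.60% of the 250 rows under either, and none over 2-fold higher, against 2.40%. At the other end were Mir380 with 4085 and 5000 counts and a ratio of 0.29 (0.23 to 0.35), Mir134 at 0.06 (-0.01 to 0.12) and Mir758 at -0.15 (-0.32 to 0.03). The intervals of Mir134 and Mir758 include 0. With 2 pools of embryos, a difference between pools and one between library preparations cannot be told apart.

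**Figure D3:**
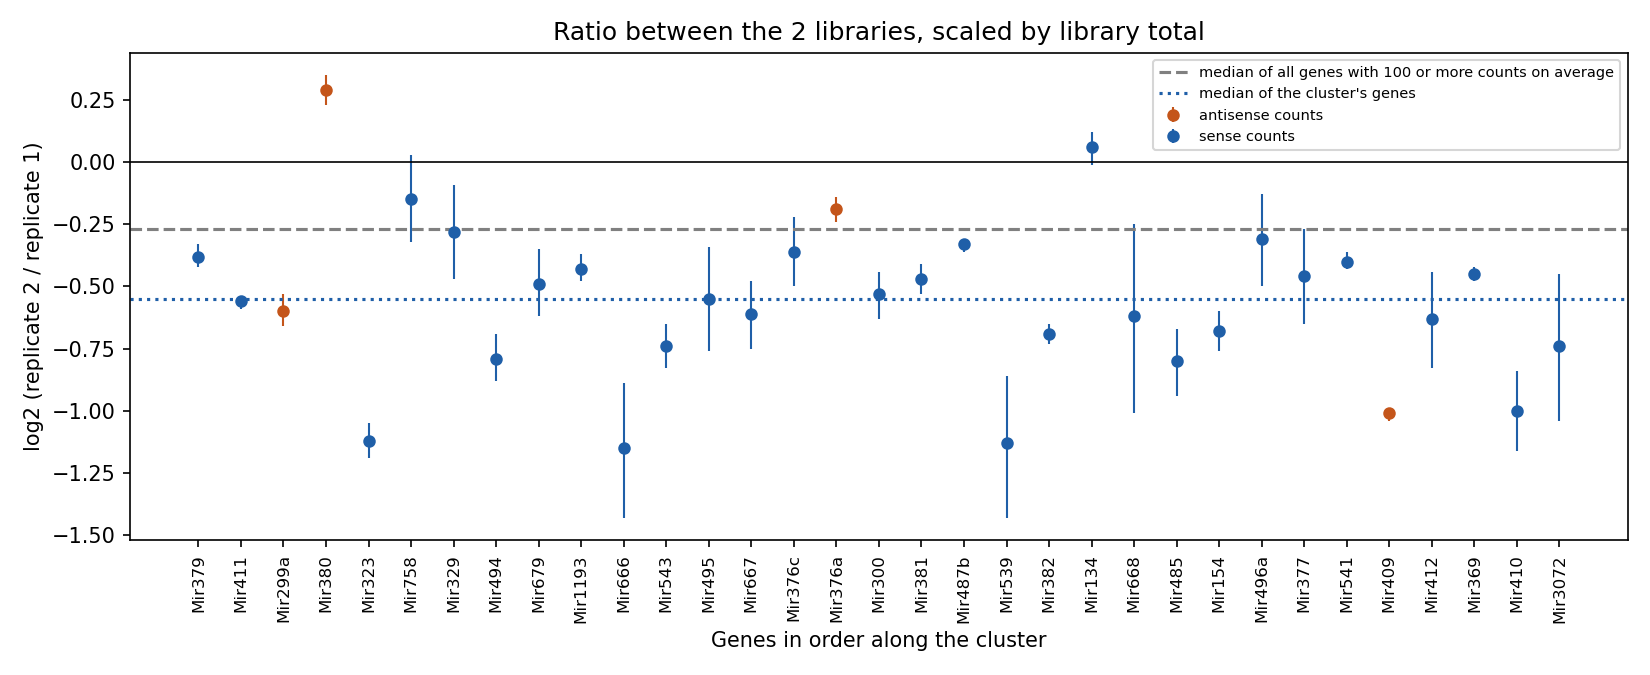
Log2 ratio of replicate 2 to replicate 1 for the 33 members with at least 100 counts on average, in order along the cluster, with 95% counting intervals, and lines at 0, at the members' median (-0.55) and at the median of all 250 such rows (-0.27). All points but Mir380 and Mir134 lie below 0.

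Against the rest of the region and other large clusters, the distal cluster was the larger part of the Dlk1-Dio3 miRNAs. The proximal part, the 20 miRNA rows of the region ahead of the cluster, read by the same strand rule, totalled 19711 and 13403 CPM in replicates 1 and 2. The distal cluster totalled 59435 and 40865 CPM, which was 3.02-fold and 3.05-fold as much. Log2 ratios of 1.59 and 1.61 show that both parts differed between the libraries by nearly the same factor, and the proximal median ratio between libraries was -0.57. Detection was reached by 13 of 20 proximal rows and 34 of 38 distal ones. By the strand rule Mir3071, on the minus strand, counted as not detected, although it had 684 and 499 sense counts. Mir431, the highest proximal gene, had 7558 and 4270 CPM (5914 ± 2325) and was below Mir411 in both libraries. Without the most abundant gene of each part the log2 ratio was 1.97, and from plus-strand rows alone 1.20.

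The imprinted Sfmbt2 intron cluster on chromosome 2 (107 rows) had 9 detected rows and 3689 and 2746 CPM, 16.1-fold and 14.9-fold less than the distal cluster. Its hairpins are repeated copies, and reads that fit several copies were not counted, so its total is a lower limit. Mir17hg on chromosome 14, the host of the growth-associated Mir17-Mir92 cluster, reached 141270 and 142964 CPM with 6 of 6 rows detected. The distal cluster was 0.421 and 0.286 of that total. Whether reads of Mir17hg were also lost to copies at other loci was not tested. None of these differences was tested.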

How the data were processed

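The authors deposited 1 table of raw read counts per library, in which the counts are given per gene for both strands, the sense strand and the antisense strand. Per the deposited readme texts, reads were aligned to mm10 and counted over GENCODE M4. No aligner, counter or trimming tool is named: these were not given in the sources used here. Of 10064833 and 7218612 reads, 32.3% and 18.6% were unmapped, 21.9% and 25.4% multimapping and 10.3% and 6.46% outside genes, and these rows stayed out of all totals. Coordinates and symbols came from GENCODE M21 (GRCm38), so gene models may differ from those counted. Reads cover mature miRNAs, and levels were not scaled by length. Log2 ratios carry a prior count of 1. Every member is named, and full values go to the 15 highest, the 5 lowest, the minus-strand rows and the 3 most extreme ratios in each direction. Members and lists were chosen with earlier results of these data known. Python 3.11.15, pandas 2.3.3, scipy 1.17.1, R 4.3.3, edgeR 4.0.16 and DESeq2 1.42.0 were used, the last 2 for scale factors alone. The ratio and scaling scripts were tested on simulated data. Alternatives covered scaling, strand, detection minimum, prior count and each library left out.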

Additional observations from a re-analysis of the deposited data

Results flagged for a closer look

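Some counts lay on the strand that was not used and above the 3 counts that a count of 0 allows. Mir299b, the minus-strand member, had 7 sense counts in replicate 1 and 4 in replicate 2, beside 4510 and 2976 antisense counts. In the proximal part, Mir337 had 9 and 8 antisense counts. Mir3071, annotated on the minus strand opposite Mir136, had 684 and 499 sense counts and no antisense count, the opposite of the 4 minus-strand members. Whether its strand differs between the annotation counted and the one used for coordinates was not tested.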

How the results depend on the processing

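With 2 libraries, leaving 1 out gives back the value of the other, so these values restate the libraries and cannot show stability. The cluster share of the sense total was then 4.09% or 5.94%, and the detected members were 34 either way. The median member level was 213 or 319 CPM and the antisense-read share 22.5% or 25.6%. With TMM or DESeq2 scaling the mean of the 2 libraries stayed within 1 SD for all 37 members with a count. These factors lower replicate 1 and raise replicate 2, so the mean could move little. This result therefore does not show that the level in each library is stable to scaling. From plus-strand rows alone the cluster share of the sense total was 3.79% in place of 5.02%, 30 members were detected, the fourth window held 26.9% of the counts in place of 36.6%, and the log2 ratio of distal to proximal counts was 1.20 in place of 1.60. That ratio was 1.97 without the most abundant gene of each part and 1.59 with Mir3071 read by sense counts, an alternative added after seeing the data. The median ratio between libraries was -0.26 with TMM and -0.27 with DESeq2 factors in place of -0.55, and the members over 2-fold lower were then 0 and 0 in place of 4. With all members and a prior count of 1 the SD of log2 level was 3.69 in place of 2.38 (both choices changed together, and their parts were not tested). No ratio between libraries can be had with 1 left out. Relative counting error is widest for the members of fewest counts. No paired analysis was possible because there is no other group of samples to pair with these.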
